A study of Mus musculus with 6 samples.

Results

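Chemokines are small secreted proteins that direct the migration of leukocytes, and their receptors are proteins of the G-protein-coupled family on the cells that respond. The genes of both families were taken by symbol: CC ligands (Ccl), CXC ligands (Cxcl), CC receptors (Ccr), CXC receptors (Cxcr), the CX3C ligand and receptor Cx3cl1 and Cx3cr1, and the XC ligand and receptor Xcl1 and Xcr1. In all, 53 of the 21705 genes in the deposited table were members, of which 20 encode CC ligands, 13 CXC ligands, 2 CX3C or XC ligands and 18 receptors. A mean of at least 10 over the 6 hearts was required for a test, and 30 of the 53 members reached it, as did 13581 genes in all. The lowest member inside this limit was Ccl21c, with a mean of 11.7, and the highest outside it was Ccl27b, with 7.77.

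Whole hearts of wild-type FVB females, 12 to 16 weeks old, were sequenced after 14 days of treatment. The treated animals received 3 mg/kg of the drug trametinib each day, which blocks the MEK kinases of the ERK pathway (3 hearts), and the comparison group received vehicle each day (3 hearts). The comparison asks how cardiac transcripts differ after MEK inhibition. Neither group carried a transgene or deletion. A whole heart mixes muscle, vessels, stroma and blood, so fewer cells of a type and less RNA per cell cannot be told apart in these values. The p-values set the difference between the groups against the spread between the hearts of a group. They cannot separate treatment from anything else that differed between the groups, such as depth.

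Ligands bind heparan sulfate on vessel walls and matrix and form gradients that leukocytes follow through their receptors. Some ligands, such as Cxcl12, are made at rest and hold cells in place or guide their traffic, whereas others, such as Cxcl1 and Ccl2, are made on stimulation by cytokines through NF-kB or related factors. In the heart, Ccr2 marks monocytes and macrophages that derive from blood, and ligands of the Cxcl1 type recruit neutrophils.

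Values are normalized counts, that is, estimated counts per gene that the authors had scaled to a common upper quartile. The value of 1 read was 0.892 to 0.940 in the trametinib libraries and 1.36 to 1.54 in the vehicle libraries, which puts the depth at an estimated 23033856 to 24691501 reads with trametinib and 14304826 to 16046500 with vehicle, so low genes rest on fewer reads in the vehicle hearts. The first principal component over all genes held 57.2% of the variance and separated the groups, with scores of -27.4, -30.6 and -56.9 in trametinib replicates 1, 2 and 3 and of 39, 47.2 and 28.7 in vehicle replicates 1, 2 and 3. All cardiomyocyte markers were detected, of which 2 of the 8 (Ryr2 and Myh6) were higher and 6 lower with trametinib. All fold changes below are differences of log2(value + 1), trametinib over vehicle, with their standard error (SE), and understate the change of low genes.

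Several ligands that attract neutrophils and monocytes, Cxcl1, Cxcl5, Ccl7 and Ccl8, were higher in the trametinib hearts, as were Cxcl13, Ccl11, Cxcl12 and the receptor Cxcr6. Cxcr4, Ccl27a and Ccl21c were lower. Thus 9 of the 30 tested members (30%) rose, 3 (10%) fell and 18 did not pass at a limma adjusted p below 0.05 over all tested genes. Over all 13581 tested genes, 21.6% rose and 22.8% fell, and 44.5% were called in either direction, against 40% of the members. The share of members called was therefore near that of all genes. These shares of all tested genes, 21.6% higher and 22.8% lower, are also the background for each count of a family or marker list below. The 3 trametinib values lay all above the 3 vehicle values in 12 members, and in 27.0% of all tested genes. They lay all below them in 3 members, and in 29.5% of all tested genes. The median log2 fold change was 0.30 over the 30 members and -0.01 over all tested genes.

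**Figure D1:**
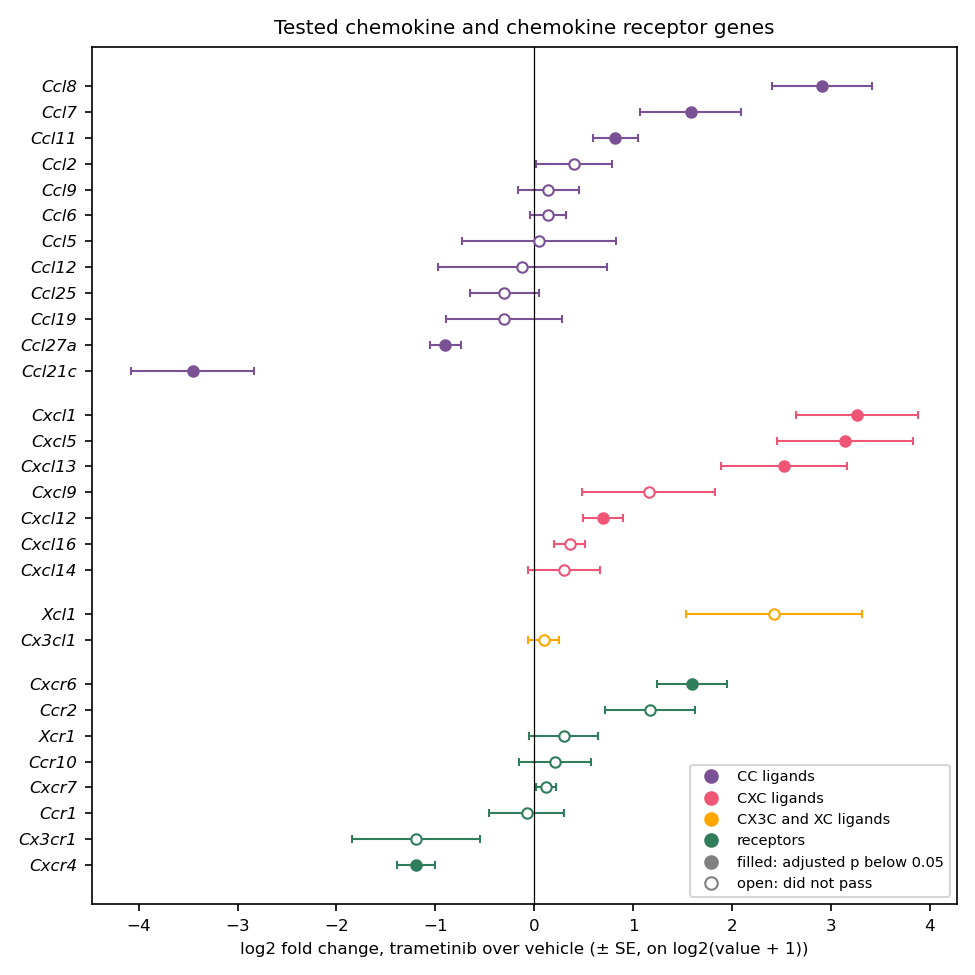
Log2 fold change of 29 tested members, trametinib over vehicle, with bars of 1 SE from the limma fit; filled points passed an adjusted p of 0.05 and open points did not. The 7 tested of the 13 CXC ligands all lie right of 0, from 0.30 for Cxcl14 to 3.26 for Cxcl1. Among them, Cxcl5 and Cxcl13 reached the limit for testing through the trametinib hearts alone. Tested CC ligands and receptors lie on both sides, with Ccl21c farthest left at -3.46.

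The promoters of Cxcl1, Cxcl2 and Cxcl3 are shown because these neighbouring ligand genes carry the same NF-kB motif at a similar place, yet had very different levels in these hearts. The 120 bases before each transcription start are given on the gene's strand from RefSeq (GRCm38.p6), at chr5:90891125-90891244 (+) for Cxcl1, chr5:90903779-90903898 (+) for Cxcl2 and chr5:90785981-90786100 (+) for Cxcl3, with the motif in capitals.
Cxcl1: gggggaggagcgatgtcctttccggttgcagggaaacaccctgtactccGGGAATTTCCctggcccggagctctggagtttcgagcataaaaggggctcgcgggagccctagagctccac
Cxcl2: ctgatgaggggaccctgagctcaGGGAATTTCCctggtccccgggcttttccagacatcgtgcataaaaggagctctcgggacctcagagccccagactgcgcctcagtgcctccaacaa
Cxcl3: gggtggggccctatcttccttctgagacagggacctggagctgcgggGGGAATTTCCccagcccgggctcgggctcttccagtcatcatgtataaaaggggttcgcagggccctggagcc
The motif searched was GGGA and TTTCC with any base between them, on both strands, in windows of 250 bases before to 50 after the start. It was found in 104 of 27025 RefSeq promoters (0.385%) and in 4 of the 38 members whose promoter was listed, the fourth being Ccr3. Its first base lay 71 bases before the start in Cxcl1, 97 in Cxcl2 and 73 in Cxcl3, each with the letters GGGAATTTCC. A match describes letters and is no evidence that a factor binds there.

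Among the CXC ligands, 4 of the 7 tested rose (57.1%), 0 fell and 3 missed the threshold, where 21.6% of all tested genes rose and 22.8% fell. The median log2 fold change of the 7 was 1.16. Cxcl5 and Cxcl13 reached the limit for testing through the trametinib hearts alone, with vehicle means of 9.62 and 6.75. The count of CXC ligands that rose, its percent, this median and the count over all members include both genes. Cxcl1, a ligand that draws neutrophils, had 186, 951 and 290.3 normalized counts in the trametinib hearts, against 22.9, 66.3 and 35.3 in the vehicle hearts. Every trametinib heart lay above every vehicle heart, and trametinib replicate 2 stood far above the other two. The log2 fold change was 3.26 ± 0.61 (SE; limma adjusted p = 0.00437), and 2.59 without trametinib replicate 2. On estimated reads with voom the adjusted p was 0.0648, within a range of 0.00101 to 0.0648 over the alternatives. Cxcl2, its neighbour and also a neutrophil ligand, had 0.940, 2.67 and 1.81 with trametinib and 1.53, 7.70 and 2.71 with vehicle, too low to test and overlapping. Cxcl3 was listed at 0 in all 6 hearts. Of the 3 genes that share the motif, Cxcl1 alone was above the limit for testing.

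Cxcl5, a further neutrophil ligand at the other end of this gene cluster, had 45.1, 109.7 and 62.4 normalized counts with trametinib and 4.59, 21.6 and 2.71 with vehicle. The groups did not overlap, and trametinib replicate 2 and vehicle replicate 2 were the highest of their groups for both Cxcl1 and Cxcl5. Cxcl5 rose by a log2 fold change of 3.14 ± 0.69 (SE; limma adjusted p = 0.00831), and by 3.91 without vehicle replicate 2. It passed under all 20 alternatives, with adjusted p from 0.00232 to 0.0342. Ppbp and Pf4, platelet chemokines outside the member list that lie between Cxcl5 and Cxcl3, moved in opposite directions. Ppbp had 445, 173 and 127 with trametinib and 16.8, 27.7 and 25.8 with vehicle (log2 fold change 3.17 ± 0.45, SE; limma adjusted p = 0.00136). Pf4 had 159.8, 99.0 and 75.1 with trametinib and 228, 300.5 and 279.5 with vehicle (log2 fold change -1.33 ± 0.27, SE; limma adjusted p = 0.00577), and did not pass after a correction for transcript length and GC content (-0.65; adjusted p = 0.0733). Of the platelet markers, 1 of 4 tested rose, Itga2b (log2 fold change 1.59 ± 0.31, SE; limma adjusted p = 0.00477), and 0 fell. Their summed level was 153 to 298 with trametinib and 60.3 to 97.8 with vehicle.

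Most neutrophil markers were also higher with trametinib. Of 9 tested, 8 rose and 0 fell, with a median log2 fold change of 3.06. The 3 with the smallest p were Csf3r, the receptor for the growth factor G-CSF (2.37 ± 0.29, SE; limma adjusted p = 0.000812), the collagenase Mmp8 (4.68 ± 0.59; adjusted p = 0.000849) and the granule protein Ngp (4.04 ± 0.67; adjusted p = 0.00245). With vehicle, Mmp8 stood at 3.06, 16.9 and 5.43 normalized counts and Ngp at 4.59, 4.62 and 2.71. Mmp8 and Ngp thus reached the limit for testing through the trametinib hearts alone. The summed level of the 10 markers was 3382, 2178 and 6785 with trametinib and 480.1, 807 and 262 with vehicle. With trametinib the neutrophil sum was highest in replicate 3 and lowest in replicate 2, where Cxcl1 and Cxcl5 were highest. With vehicle the sum, Cxcl1 and Cxcl5 were all highest in replicate 2. Of the 5 red-cell markers tested, 4 rose (Slc4a1, Alas2 and Hba-a2 among them) and 0 fell, with summed levels of 54952 to 194159 with trametinib and 19815 to 27341 with vehicle. The part of these cells in the ligand values was not tested.

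Cxcl13, which attracts B cells through Cxcr5, had 56.4, 16.0 and 71.4 normalized counts with trametinib, against 3.06, 7.70 and 9.50 with vehicle. All trametinib values were higher, with replicate 2 the lowest of the 3. The log2 fold change was 2.53 ± 0.64 (SE; limma adjusted p = 0.0151). The call was lost without trametinib replicate 1 (adjusted p = 0.06), without trametinib replicate 3 (0.0565) and with voom (0.0536), and the value was 3.17 without trametinib replicate 2. Over the alternatives the adjusted p ran from 0.00504 to 0.06. Of the B cell markers, 0 reached the limit for testing, with summed levels of 5.35 to 11.3 in the trametinib and 7.70 to 38.2 in the vehicle hearts. Cxcr5 itself was below the limit, with 6.33 to 10.3 in the trametinib and 1.54 to 6.78 in the vehicle hearts.

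Cxcl12, a resting ligand of stromal and vessel cells that acts on Cxcr4 and is scavenged by Cxcr7, had 10076, 6932 and 6741 normalized counts with trametinib and 5706, 3675 and 5294 with vehicle. The lowest trametinib heart was above the highest vehicle heart, and trametinib replicate 1 and vehicle replicate 1 were the highest of their groups. Its log2 fold change was 0.69 ± 0.20 (SE; limma adjusted p = 0.0271). The call was lost without trametinib replicate 1 (adjusted p = 0.0732), without vehicle replicate 2 (0.0651) and with no mean-variance trend (0.06). Corrected for length and GC content, the log2 fold change was 0.45 (adjusted p = 0.132). Over the alternatives the adjusted p ran from 0.00873 to 0.132. Among markers of the cell types that make it, those of vessels moved both ways: of 8 endothelial markers 3 rose and 1 fell, with summed levels of 24441 to 25801 with trametinib and 19279 to 21571 with vehicle, higher in every trametinib heart. The endothelial markers with the smallest p were the vascular growth factor receptor Flt1 (0.79 ± 0.09, SE; limma adjusted p = 0.000576), the mucin-like Emcn, which fell (-0.34 ± 0.08; adjusted p = 0.0108), and the receptor Kdr (1.04 ± 0.33; adjusted p = 0.0361). The third that rose, the junction protein Cdh5 (0.19 ± 0.07; adjusted p = 0.0481), was named after its values were seen. Corrected for length and GC content, 1 endothelial marker was higher and 3 were lower. The count higher was 1 without trametinib replicate 1 or 3 or vehicle replicate 3, and the count lower was 2 without replicate 2 of either group. Of 7 smooth muscle and pericyte markers 2 rose, Rgs5 (0.68 ± 0.06; adjusted p = 0.000357) and Myh11 (1.34 ± 0.24; adjusted p = 0.0038), and Kcnj8 fell (-0.57 ± 0.17; adjusted p = 0.0293), with summed levels of 8968 to 13349.5 with trametinib and 9049 to 13699 with vehicle. The count lower ran from 0 to 2 over the alternatives. Fibroblast markers were mostly lower, with 5 of 7 lower and 1 higher, and summed levels of 53133 to 56201 with trametinib and 78303 to 98345 with vehicle. The fibroblast markers with the smallest p were Gsn (-1.26 ± 0.11; limma adjusted p = 0.000283), Lum (-1.31 ± 0.11; adjusted p = 0.000284) and Tcf21 (-0.90 ± 0.14; adjusted p = 0.00217). The 1 that was higher, Pdgfra (0.26 ± 0.09; adjusted p = 0.0477), was named after its values were seen, as were the other two that fell, Col1a2 and Col1a1. The count of higher markers was 0 without trametinib replicate 1, 2 or 3 or vehicle replicate 1 or 2.

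The other CXC ligands tested did not pass. Cxcl9, an interferon-inducible ligand of Cxcr3, had 39.5, 57.1 and 86.8 normalized counts with trametinib and 78.0, 10.8 and 19.0 with vehicle. Vehicle replicate 1 overlapped the trametinib hearts (log2 fold change 1.16 ± 0.67, SE; limma adjusted p = 0.201). Without that heart Cxcl9 passed (1.95; adjusted p = 0.0117). Cxcl16, a membrane-anchored ligand of Cxcr6, had 228, 266 and 309 with trametinib and 219, 174 and 231 with vehicle, overlapping at 1 heart (0.36 ± 0.16, SE; adjusted p = 0.0996), and passed with quantile normalization (adjusted p = 0.0455). Cxcl14, made by epithelial and stromal cells, had 394, 473 and 274 with trametinib and 531, 268 and 191 with vehicle and overlapped widely (0.30 ± 0.37, SE; adjusted p = 0.533).

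The promoter of Cxcl10 is shown for its interferon motif, since Cxcl10 is a classical interferon-inducible ligand. The 250 bases before its start lie at chr5:92348890-92349139 (-) in GRCm38.p6, and capitals mark, from the 5′ end, the interferon motif (GAAA and GAAA with any 2 bases between them) and an AP-1 motif (TGANTCA).
Cxcl10: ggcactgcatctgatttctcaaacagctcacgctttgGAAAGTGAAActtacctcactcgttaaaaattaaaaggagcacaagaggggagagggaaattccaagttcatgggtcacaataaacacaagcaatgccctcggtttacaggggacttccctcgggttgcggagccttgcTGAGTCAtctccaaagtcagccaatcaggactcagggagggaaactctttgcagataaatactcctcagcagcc
The interferon motif stood in 943 of the 27025 promoters (3.49%), and its first base lay 213 bases before the start of Cxcl10. The AP-1 motif stood in 2144 promoters (7.93%) and lay 74 bases before it. Cxcl10 had 1.88, 10.7 and 2.71 with trametinib and 1.53, 0 and 4.07 with vehicle, below the limit for testing and overlapping. Cxcl11, also an interferon-inducible ligand of Cxcr3, was at 2.82, 1.78 and 1.81 with trametinib and at 0 in every vehicle heart. Ifng, the gene for interferon gamma, was at 4.70, 7.13 and 1.81 with trametinib and at 0 in every vehicle heart. The value of 3 reads was 4.07 to 4.62 in the vehicle libraries, so for Cxcl11 no fold is given.

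**Figure D2:**
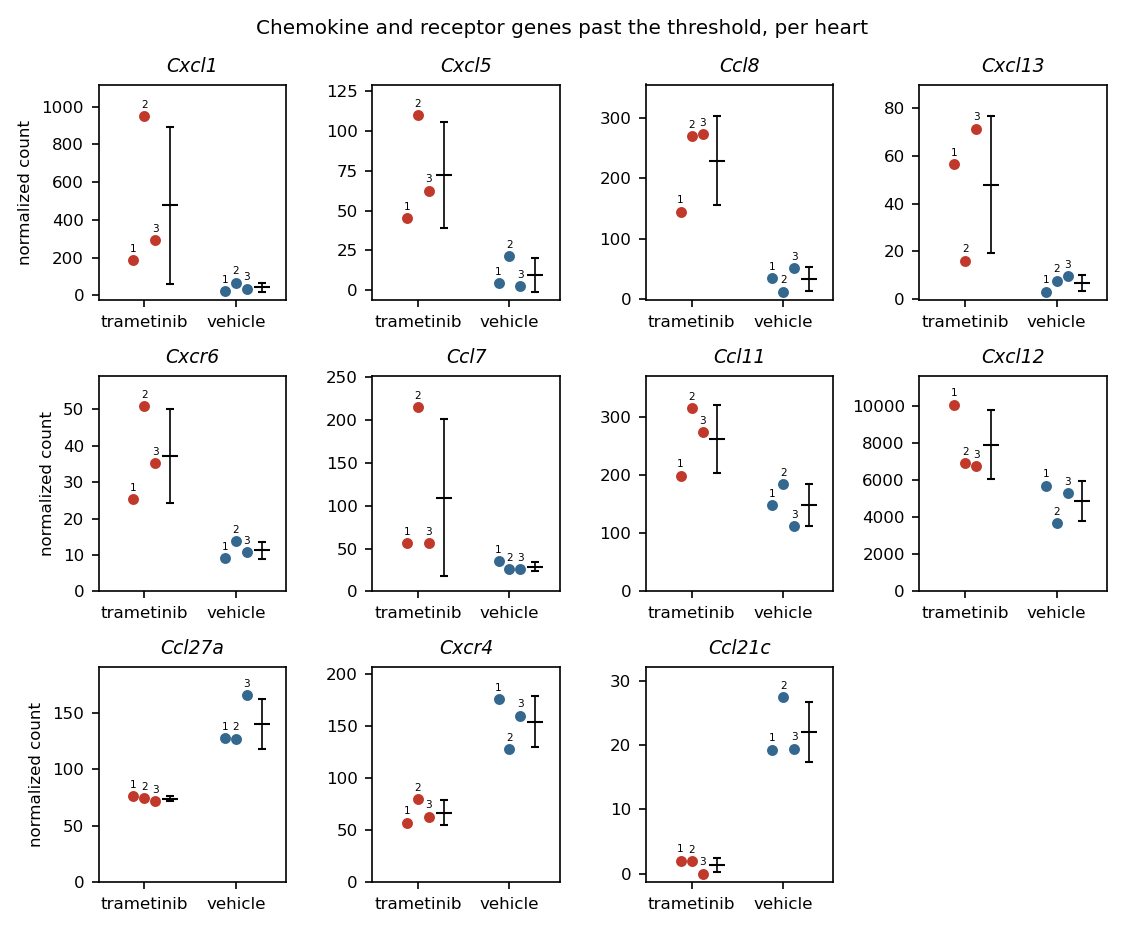
Normalized counts per heart for 11 members past an adjusted p of 0.05, with trametinib left and vehicle right, each point numbered by its replicate, and bars of the mean ± SD (n = 3 each). In every panel the groups do not overlap; trametinib replicate 2 is the highest of its group for Cxcl1, Cxcl5, Ccl7, Ccl11, Cxcr6 and Cxcr4 and the lowest for Cxcl13.

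Of the 12 tested CC ligands, 3 rose (25%), 2 fell (16.7%) and 7 missed the threshold. Over all tested genes, 21.6% rose and 22.8% fell. The median log2 fold change of the 12 CC ligands was 0.09. All 3 that rose lie in 1 cluster of 6 genes, Ccl2, Ccl7, Ccl11, Ccl12, Ccl8 and Ccl1, with no other coding gene between them. Ccl8, a monocyte chemoattractant that in mice acts on Ccr8, had 145, 270.2 and 273 normalized counts with trametinib and 35.2, 12.3 and 51.6 with vehicle. The groups were well apart, and trametinib replicate 1 and vehicle replicate 2 were the lowest of their groups. Its log2 fold change was 2.91 ± 0.51 (SE; limma adjusted p = 0.00308), with 3.50 after the length and GC correction. It passed under all 20 alternatives, with adjusted p from 0.00193 to 0.0136. Ccr8 was listed at 0 in all 6 hearts.

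Ccl7, which draws monocytes through Ccr2, had 56.4, 215 and 56.1 normalized counts with trametinib and 35.2, 26.2 and 25.8 with vehicle. Trametinib replicate 2 stood alone, and the other two lay just above the vehicle hearts. The log2 fold change was 1.58 ± 0.51 (SE; limma adjusted p = 0.0382), and 0.94 without trametinib replicate 2. The call was lost without vehicle replicate 1 (adjusted p = 0.057), 2 (0.0926) or 3 (0.0947), without a trend (0.0661), with voom (0.124), on thinned reads (0.0519) and under the replicate block (0.0519), in a range of 0.0207 to 0.124. Ccl11, the eosinophil ligand eotaxin, had 199, 316 and 274 with trametinib and 148, 185 and 113 with vehicle. The groups came close at trametinib replicate 1 and vehicle replicate 2. Its log2 fold change was 0.82 ± 0.23 (SE; limma adjusted p = 0.0221), lost without trametinib replicate 2 (adjusted p = 0.0733), trametinib replicate 3 (0.067) or vehicle replicate 3 (0.06), in a range of 0.0117 to 0.0733. Of the mast cell and eosinophil markers, 0 reached the limit for testing, and the eosinophil granule genes Epx and Prg2 were listed at 0 in every heart. Ccr3, the receptor for Ccl11, was above 0 in 1 trametinib heart (0.904) and 1 vehicle heart (1.54).

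The other members of this cluster did not pass. Ccl2, the main ligand of Ccr2, had 42.3, 93.6 and 33.5 normalized counts with trametinib and 35.2, 33.9 and 47.5 with vehicle, with trametinib replicate 2 high and the rest mixed (log2 fold change 0.40 ± 0.39, SE; limma adjusted p = 0.43). Without that heart the log2 fold change was -0.029. Ccl12, a mouse monocyte ligand, had 15.0, 23.2 and 7.23 with trametinib and 29.1, 3.08 and 32.6 with vehicle, and overlapped (-0.12 ± 0.86, SE; adjusted p = 0.92). Ccl1, a ligand of Ccr8, was listed at 0 in all 6 hearts.

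**Figure D3:**
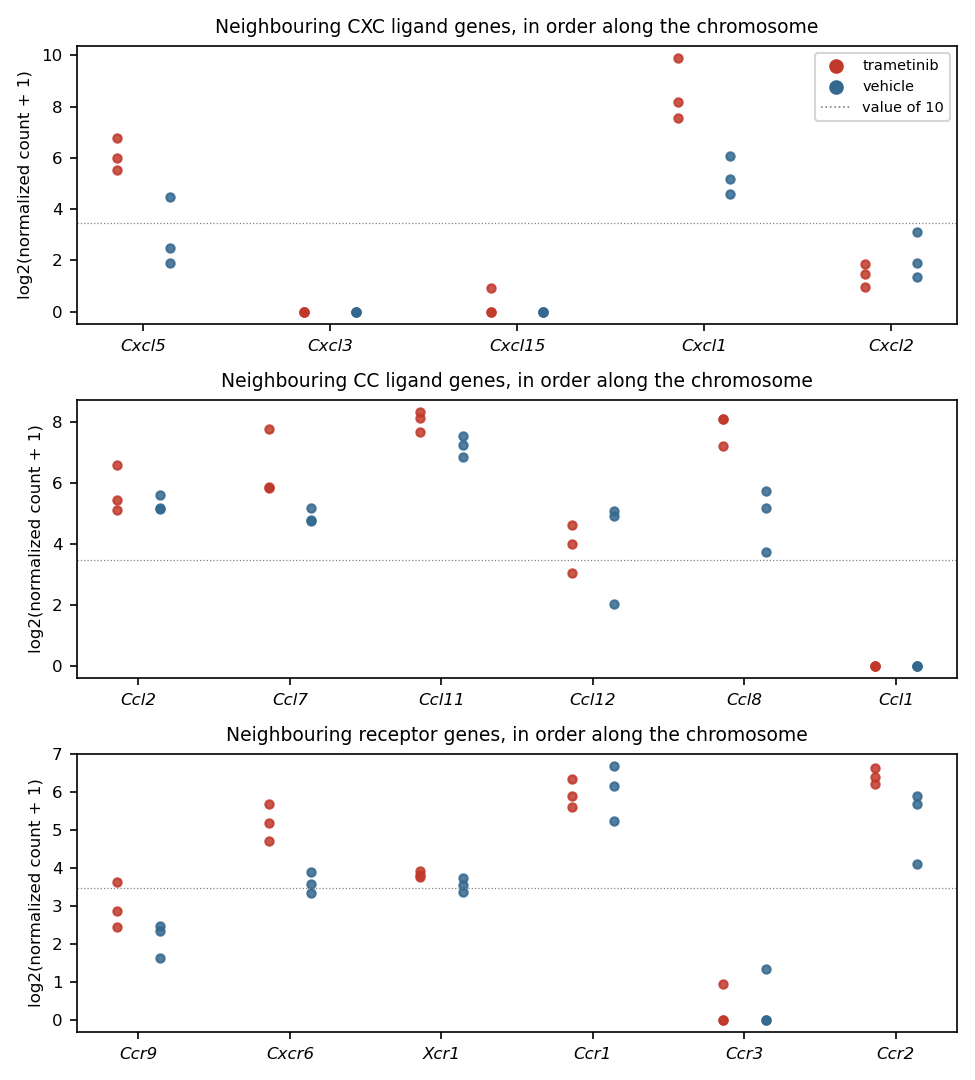
log2(normalized count + 1) per heart for 3 sets of neighbouring genes in chromosome order, trametinib left of vehicle for each gene, with a dotted line at a value of 10. In the CXC set Cxcl5 and Cxcl1 are separated by group while Cxcl3 is at 0 in all 6 hearts; in the CC set Ccl7, Ccl11 and Ccl8 are separated and Ccl2 and Ccl12 overlap; in the receptor set Cxcr6, Xcr1 and Ccr2 are separated and Ccr1 overlaps.

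In the second CC cluster, of Ccl5, Ccl9, Ccl6, Ccl3 and Ccl4, 0 of the 3 tested genes passed. Ccl6, a macrophage ligand of Ccr1 in mice, had 1046, 1044 and 1544 normalized counts with trametinib and 989, 1325 and 963 with vehicle (log2 fold change 0.14 ± 0.18, SE; limma adjusted p = 0.564). Ccl9, likewise a ligand of Ccr1 in mice, had 530.3, 519 and 788 with trametinib and 343, 803 and 583 with vehicle (0.14 ± 0.31, SE; adjusted p = 0.725). Both were highest in trametinib replicate 3 within that group and in vehicle replicate 2 within the other. Ccl5, made by T and NK cells, had 4.70, 44.6 and 33.5 with trametinib and 30.6, 13.9 and 16.3 with vehicle, with trametinib replicate 1 the lowest of all 6 hearts (0.05 ± 0.78, SE; adjusted p = 0.968). Ccl3 and Ccl4, inflammatory ligands of macrophages, were under the limit, at 0.904 to 6.24 and 0 to 3.57 with trametinib and at 1.54 to 4.59 and 2.71 to 6.16 with vehicle.

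Of the CC ligands of lymphoid tissue and skin, 2 fell. Ccl21c, a copy of the Ccl21 ligand of Ccr7 that lymphatic vessels and lymph nodes make, had 2.02, 1.94 and 0 normalized counts with trametinib and 19.3, 27.4 and 19.4 with vehicle. All 3 vehicle hearts were far above the trametinib hearts, which held 2.15, 2.18 and 0 estimated reads against 12.6, 17.8 and 14.3. The log2 fold change was -3.46 ± 0.62 (SE; limma adjusted p = 0.00357) and depended on the pseudocount, with -2.10 at a pseudocount of 5. The gene passed under the 17 alternatives that tested it, with adjusted p from 0.00183 to 0.0226. Ccl21 has near-identical gene copies, so that the reads counted for 1 copy are uncertain, and no transcript length was at hand, so that both runs with the length and GC correction left the gene uncorrected and are not among the 17. Lymphatic markers moved both ways, with 1 of 6 tested higher, Prox1 (0.70 ± 0.21, SE; adjusted p = 0.0323), and 1 lower, Pdpn (-0.52 ± 0.16, SE; adjusted p = 0.0317). The summed level of the lymphatic markers was 3457 to 4463 with trametinib and 2687 to 2977 with vehicle, most of it from Lyve1 and Prox1. Lyve1 did not pass (0.46 ± 0.27, SE; limma adjusted p = 0.208), and which cells made Lyve1 and Prox1 was not tested. The call of Prox1 was lost without trametinib replicate 2 or 3 or vehicle replicate 2 or 3, and that of Pdpn without trametinib replicate 1 or 2 or vehicle replicate 2 or 3. Of the thymus and lymph node markers 0 could be tested, Foxn1 and Rag1 were listed at 0 in every heart, and the summed level was 3.76 to 5.43 with trametinib and 4.07 to 9.17 with vehicle.

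Ccl27a, a skin ligand of Ccr10, had 76.4, 74.3 and 71.6 normalized counts with trametinib and 127, 127 and 166 with vehicle. The trametinib hearts lay within 5 units of each other and all below the vehicle hearts. Its log2 fold change was -0.90 ± 0.16 (SE; limma adjusted p = 0.00303), but -0.29 once corrected for length and GC content (adjusted p = 0.205). Over the alternatives the adjusted p ran from 0.00246 to 0.205. Ccl27 also has near-identical copies, and Ccl27b had 3.88 to 7.86 with trametinib and 4.61 to 16.7 with vehicle. Ccl27a shares 8 bases with Il11ra1 on the opposite strand, which was lower too (-0.40 ± 0.10, SE; limma adjusted p = 0.0134).

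Ccl19, the other ligand of Ccr7, had 16.0, 15.3 and 3.82 normalized counts with trametinib and 12.2, 9.24 and 17.6 with vehicle and overlapped (log2 fold change -0.31 ± 0.59, SE; limma adjusted p = 0.698). Ccl25, the ligand of Ccr9, had 12.2, 22.3 and 26.2 with trametinib and 22.9, 26.2 and 23.1 with vehicle (-0.30 ± 0.35, SE; adjusted p = 0.511), with trametinib replicate 1 the lowest heart. Ccl17 and Ccl22, ligands of Ccr4, stayed under the limit, at 0 to 1.81 and 0.940 to 1.81 with trametinib and at 0 to 4.07 and 0 to 3.08 with vehicle.

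The CX3C and XC ligands did not pass. Cx3cl1, the membrane-bound ligand fractalkine of vessel walls, had 402, 295 and 399 normalized counts with trametinib and 399, 316 and 307 with vehicle, which overlapped (log2 fold change 0.10 ± 0.16, SE; limma adjusted p = 0.643). Xcl1, made by NK and T cells, had 12.2, 36.6 and 12.7 with trametinib and 7.65, 0 and 4.07 with vehicle. Its groups did not overlap, but the log2 fold change of 2.42 ± 0.89 (SE; limma adjusted p = 0.0597) was just outside the threshold. Xcl1 passed without vehicle replicate 1 (3.07; adjusted p = 0.0337), after the length and GC correction (2.99; 0.0368), with quantile normalization (0.0408) and at a pseudocount of 5 (0.0456). The NK cell markers, of which 0 of 2 tested passed, had summed levels of 47.3, 107 and 57.2 with trametinib and 59.7, 20.8 and 17.1 with vehicle, and trametinib replicate 2 was highest in both Xcl1 and that sum. Without vehicle replicate 1, 1 NK cell marker was higher. Of the T cell markers, 1 of 5 tested rose, Cd247 (0.47 ± 0.14, SE; limma adjusted p = 0.0258), a call lost without trametinib replicate 1 or 3 or vehicle replicate 2 or 3. The summed level of all 8 T cell markers was 235 to 279 with trametinib and 163 to 223 with vehicle. Most of that sum came from Cd247, at 169, 163 and 189 with trametinib and 139, 109 and 128 with vehicle. The other T cell markers tested did not pass.

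Of the 9 receptors tested, 2 rose (22.2%), 1 fell (11.1%) and 6 missed the threshold. Over all tested genes, 21.6% rose and 22.8% fell. The median log2 fold change of the 9 receptors was 0.21. Cxcr4, the signalling receptor for Cxcl12, had 57.4, 80.2 and 63.3 normalized counts with trametinib and 176, 128 and 160.1 with vehicle. All trametinib hearts lay below all vehicle hearts. It fell by 1.20 ± 0.19 on the log2 scale (SE; limma adjusted p = 0.00209), and passed under all 20 alternatives with adjusted p from 0.00193 to 0.0201. Thus the ligand Cxcl12 was higher and its receptor Cxcr4 lower in the same hearts, with the limits on the Cxcl12 call given above. Cxcr7, the atypical receptor that removes Cxcl12, had 3194, 3869.8 and 3912 with trametinib and 3059.6, 3630.2 and 3398 with vehicle, and overlapped (log2 fold change 0.12 ± 0.10, SE; limma adjusted p = 0.361).

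Per kb of mean transcript length, Cxcr7 and Cxcl12 were the most abundant members. That length was the plain mean over all annotated transcripts of a gene, short ones included, so the order depends on it. Cxcl12 was at 2340 ± 554 normalized counts per kb with trametinib and 1446 ± 317 with vehicle (SD, n = 3 each). Cxcr7 was at 2109 ± 232 per kb with trametinib and 1939 ± 165 with vehicle. Ccl6 followed at 1367 ± 325 per kb with trametinib and 1233 ± 228 with vehicle. The values of Cxcl12 and Cxcr7 overlapped in the trametinib hearts and those of Cxcl12 and Ccl6 in the vehicle hearts, so that these neighbours in the order were not separated there. Cxcr4 was far lower, at 49.5 ± 8.78 per kb with trametinib and 114 ± 18.1 with vehicle. Cxcl1 was at 337 ± 294 per kb with trametinib and 29.4 ± 15.8 with vehicle, an SD nearly as large as the mean with trametinib. At the low end, Xcr1 was at 3.00 ± 0.184 per kb with trametinib and 2.41 ± 0.333 with vehicle.

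**Figure D4:**
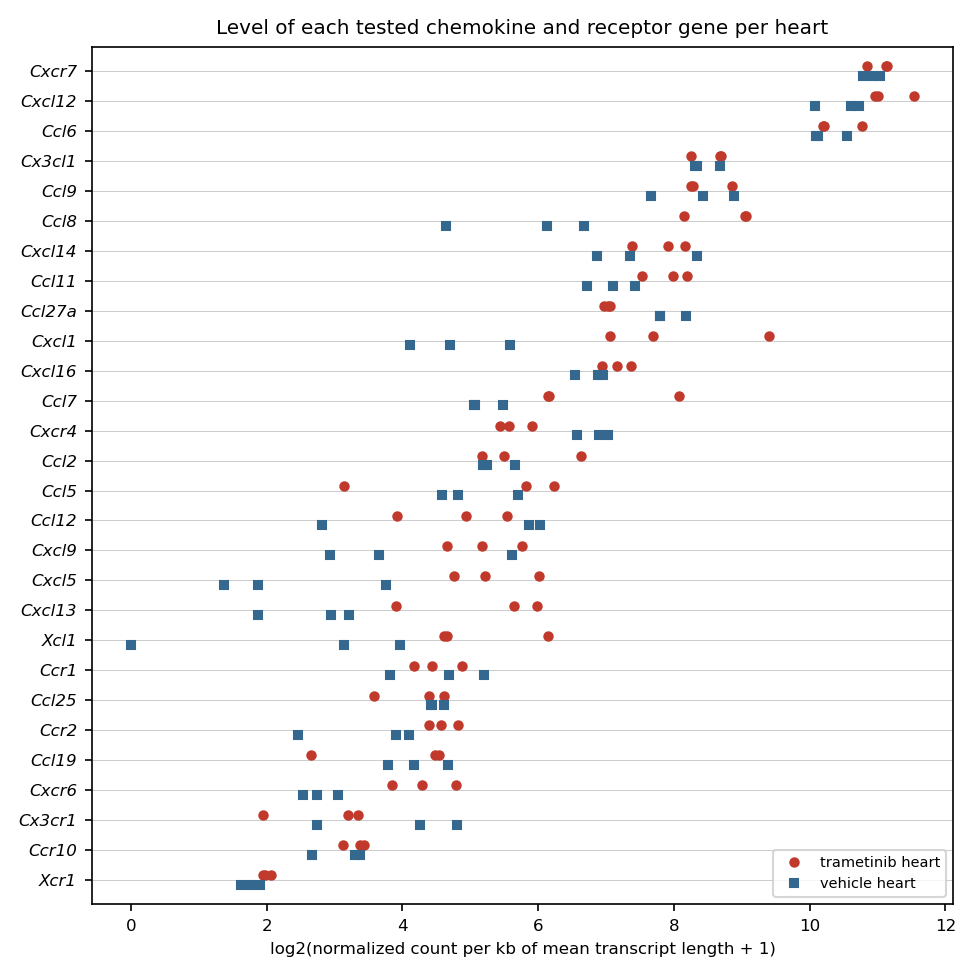
log2(normalized count per kb of mean transcript length + 1) in each heart for 28 tested members that have a transcript length, ordered by the mean over the 6 hearts; circles are trametinib and squares vehicle hearts. Cxcr7, Cxcl12 and Ccl6 stand at the top and Xcr1 at the bottom, and Cxcl1, Ccl8, Cxcl5 and Cxcl13 show wide gaps between the groups.

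Cxcr6, the receptor for Cxcl16 on T and NK cells, had 25.4, 50.8 and 35.3 normalized counts with trametinib and 9.17, 13.9 and 10.9 with vehicle. The groups did not overlap, and replicate 2 was the highest in each. Its log2 fold change was 1.60 ± 0.35 (SE; limma adjusted p = 0.00887), and it passed in all 19 alternatives that tested it, with adjusted p from 0.00768 to 0.0392. Cxcr6 lies within Fyco1, a far more abundant gene on the opposite strand, and shares 5286 bases of its span with it. Fyco1 had 14528, 15848 and 16248 with trametinib and 10968, 9488 and 10079 with vehicle (log2 fold change 0.61 ± 0.07, SE; limma adjusted p = 0.00068). The kit was stranded, but whether reads were counted by strand is not given, so reads of Cxcr6 and Fyco1 cannot be told apart there.

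Ccr2, on monocytes, had 82.9, 99.1 and 72.7 normalized counts with trametinib and 58.7, 16.4 and 50.9 with vehicle. The groups did not overlap, and vehicle replicate 2 was low. It did not pass (1.18 ± 0.45, SE; limma adjusted p = 0.0702), but did without vehicle replicate 1 (adjusted p = 0.0382) and with voom (0.0405).

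Cx3cr1, the receptor for Cx3cl1 on monocytes and macrophages, had 34.8, 31.2 and 10.9 normalized counts with trametinib and 102, 21.6 and 69.2 with vehicle. Vehicle replicate 2 again lay apart from its group, inside the trametinib range (log2 fold change -1.19 ± 0.64, SE; limma adjusted p = 0.171). Without it the log2 fold change was -1.83 (adjusted p = 0.0338). Ccr1, on monocytes and neutrophils, had 58.3, 48.1 and 80.5 with trametinib and 70.3, 37.0 and 102 with vehicle and overlapped (-0.08 ± 0.38, SE; adjusted p = 0.885). Vehicle replicate 2 had the lowest value of its group in 17 of the 30 tested members, and trametinib replicate 2 the highest of its group in 14.

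Ccr10, the receptor for Ccl27, had 16.9, 13.4 and 16.3 normalized counts with trametinib and 15.3, 9.24 and 16.3 with vehicle (log2 fold change 0.21 ± 0.36, SE; limma adjusted p = 0.668). Xcr1, the Xcl1 receptor of cross-presenting dendritic cells, had 13.2, 14.3 and 12.7 with trametinib and 10.7, 9.24 and 12.2 with vehicle, without overlap but close together (0.30 ± 0.35, SE; adjusted p = 0.515). Of the dendritic cell markers, 1 of 2 tested rose, Clec9a (1.17 ± 0.26, SE; limma adjusted p = 0.00878), and the summed level of all 6 was 282 to 348 with trametinib and 231 to 323 with vehicle, most of it from Zbtb46. Among the dendritic markers below the limit for testing, 3 lay lower in every trametinib heart than in any vehicle heart, and were named after their values were seen. Siglech, of plasmacytoid dendritic cells, had 0, 0.892 and 0 normalized counts with trametinib and 6.12, 13.9 and 6.78 with vehicle. Cd209a, of monocyte-derived dendritic cells, had 0.940, 1.78 and 0 with trametinib and 9.17, 10.8 and 19.0 with vehicle. The growth factor receptor Flt3 had 0.940, 2.68 and 0 with trametinib and 3.06, 4.62 and 4.07 with vehicle. With no filter on low values, 2 dendritic markers were called lower.

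Markers of monocytes and macrophages stand beside these receptors. Of the 7 monocyte markers tested, 4 rose and 1 fell. The summed level of all 8 monocyte markers was 4522 to 4752 with trametinib and 5142 to 5988 with vehicle. Most of that sum came from Ly6c1, at 3384, 3781 and 3282 with trametinib and 4486, 4944 and 3874 with vehicle. The sum thus follows Ly6c1 and not the 4 markers that rose, and which cells made Ly6c1 was not tested. Those that rose included the chitinase-like Chi3l3 (6.48 ± 0.56, SE; limma adjusted p = 0.000293) and Plac8 (3.14 ± 0.58; adjusted p = 0.00411). Chi3l3 had 136, 69.5 and 186 normalized counts with trametinib and 1.53, 0 and 0 with vehicle. Plac8 had 41.4, 41.9 and 70.5 with trametinib and 10.7, 1.54 and 5.43 with vehicle. Both reached the limit for testing through the trametinib hearts alone, and the size of the Chi3l3 change rests on the pseudocount. The 1 that fell, Ly6c1 (-0.34 ± 0.10; adjusted p = 0.025), and Fcgr4, which rose, were named after their values were seen. The count lower was 0 without trametinib replicate 1 or 3 or vehicle replicate 1 or 2, and Ly6c1 was at 0.16 once corrected for length and GC content (adjusted p = 0.111). Of the 12 macrophage markers, 1 rose and 4 fell, with summed levels of 8689 to 11338 with trametinib and 10772 to 11937 with vehicle. Lyz2 (-0.65 ± 0.07; adjusted p = 0.000621), Folr2 (-0.73 ± 0.14; adjusted p = 0.00519) and Csf1r (-0.51 ± 0.11; adjusted p = 0.00966) fell. The other two called, Cd68, lower, and F13a1, higher, were named after their values were seen. The part of these cells in the receptor values was not tested.

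Of the 23 members under the limit, 5 were listed at 0 in all 6 hearts, namely Ccl1, Ccl20, Ccl26, Ccr8 and Cxcl3. The neutrophil receptor Cxcr1 was at 5.64, 0.892 and 2.71 with trametinib and at 0 in all vehicle hearts. Ccr6, a receptor of B and T cells, was at 3.76, 1.78 and 2.71 with trametinib and at 0 in all vehicle hearts. In estimated reads these were 6, 1 and 3 for Cxcr1, 4, 2 and 3 for Ccr6 and 3, 2 and 2 for Cxcl11, and with no limit on the mean all 3 genes passed. At the shallower depth of the vehicle libraries, a level under 3 reads (4.07 to 4.62) could go undetected. Ccr4 was above 0 in 2 trametinib hearts (2.82 and 0.904) and in 0 vehicle hearts, and Cxcl15 in 1 trametinib heart (0.892).

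The remaining low receptors overlapped or lay close. The interferon-ligand receptor Cxcr3 had 4.70 to 6.33 with trametinib and 6.16 to 10.7 with vehicle. Ccr7, the receptor for Ccl19 and Ccl21, had 1.78 to 5.64 with trametinib and 4.07 to 9.24 with vehicle. Ccr9, the receptor for Ccl25, had 4.46 to 11.3 with trametinib and 2.08 to 4.59 with vehicle. The mucosal ligand Cxcl17 had 0.892 to 1.88 with trametinib and 0 to 1.54 with vehicle.

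Genes that shape chemokine gradients and responses were also counted, beside 21.6% higher and 22.8% lower over all tested genes. Of the 5 atypical and decoy receptors, 2 rose (40%), 1 fell (20%) and 2 did not pass. Ccrl1, which scavenges Ccl19, Ccl21 and Ccl25, had 16.0, 12.5 and 13.6 normalized counts with trametinib and 67.3, 89.4 and 109.9 with vehicle, wholly apart (log2 fold change -2.56 ± 0.26, SE; limma adjusted p = 0.000425). Ccrl2, which binds the attractant chemerin, had 348, 503 and 434 with trametinib and 297, 254 and 216 with vehicle (0.74 ± 0.17, SE; adjusted p = 0.00982). Darc, the vessel and red-cell chemokine receptor, had 28.2, 16.0 and 20.8 with trametinib and 4.59, 10.8 and 5.43 with vehicle (1.56 ± 0.45, SE; adjusted p = 0.0251). The Darc call was lost without trametinib replicate 1 or 3 or vehicle replicate 1 or 3. Ccbp2, a scavenger of inflammatory CC ligands, did not pass (0.07 ± 0.28, SE; adjusted p = 0.857). Ccl21c, a copy of a ligand that Ccrl1 scavenges, was lower too, with the limits on its reads and copies given above. Ccl21c reached the limit for testing through the vehicle hearts alone, with a mean of 22.0 there and 1.32 with trametinib. Ccl19 (limma adjusted p = 0.698) and Ccl25 (0.511), which Ccrl1 also scavenges, did not pass.

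Of 12 other chemoattractants and their receptors tested, 5 rose (41.7%) and 3 fell (25%), with a median log2 fold change of 0.39. Beside Ppbp and Pf4, the cytokine Mif fell (-0.68 ± 0.07, SE; limma adjusted p = 0.000526), but was at -0.057 once corrected for length and GC content (adjusted p = 0.592). The formyl peptide receptor Fpr2 rose (1.44 ± 0.38; adjusted p = 0.0179) and the complement receptor C5ar1 fell (-0.61 ± 0.17; adjusted p = 0.0224). Rarres2, Cmklr1 and Fpr1, named after their values were seen, also rose. The count higher was 2 without trametinib replicate 1, 1 without trametinib replicate 3, 2 without vehicle replicate 1 and 2 without vehicle replicate 3. Of 35 signalling genes downstream of the receptors, 7 rose (20%) and 4 fell (11.4%), with a median of 0.10. Both shares were below those of all tested genes (21.6% and 22.8%). The called signalling genes included Rgs5, an inhibitor of G-protein signalling in pericytes (0.68 ± 0.06; adjusted p = 0.000357), the kinase Fgr of myeloid cells (3.03 ± 0.34; adjusted p = 0.000533) and the receptor kinase Grk5 (0.65 ± 0.11; adjusted p = 0.00253), which rose. Fgr had 55.5, 46.4 and 73.3 normalized counts with trametinib and 6.12, 4.62 and 8.14 with vehicle, and reached the limit for testing through the trametinib hearts alone. The G-protein subunits Gnb2 (-0.35 ± 0.05; adjusted p = 0.00106) and Gng10 (-0.68 ± 0.11; adjusted p = 0.00217) fell, and Gnb2 did not pass once so corrected (-0.12; adjusted p = 0.0893). Gng5 and Gnb4, named after their values were seen, fell too.

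Of 19 genes for cleavage and surface presentation, 6 rose (31.6%) and 3 fell (15.8%), with a median of 0.07, where 21.6% of all tested genes rose and 22.8% fell. The collagenase Mmp8, also a neutrophil marker, the heparan sulfate enzyme Ndst1 (0.84 ± 0.11, SE; limma adjusted p = 0.000871), the sheddase Adam10, which releases Cx3cl1 and Cxcl16 (0.52 ± 0.07; adjusted p = 0.00102), the heparan sulfate carrier Sdc3 (0.37 ± 0.07; adjusted p = 0.0033) and the peptidase Mme (0.62 ± 0.13; adjusted p = 0.00741) rose. Dpp4, Sdc2 and Mmp2, named after their values were seen, fell. The count lower was 0 without trametinib replicate 1 or 2 or vehicle replicate 2 or 3. Of 16 tested genes that induce chemokines, 3 rose (18.75%) and 1 fell (6.25%), with a median of 0.19. Among them the interferon factor Irf1 (0.88 ± 0.17; adjusted p = 0.00474) and the interleukin-1 receptor Il1r1 (0.92 ± 0.21; adjusted p = 0.00966) rose, and Ifngr2, a chain of the interferon gamma receptor, fell (-0.33 ± 0.07; adjusted p = 0.00846). Without vehicle replicate 3, 5 rose, and without vehicle replicate 1, 2 fell. Il17a and Il4 were listed at 0 in every heart.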

How the data were processed

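The authors deposited a signal per gene: estimated counts that were scaled by a single factor in each library, as can be seen from the values, with Entrez identifiers. The submitters' processing notes name Picard 1.64, SAMtools, RSEM, DESeq2 and mm9, with no role or order. No aligner or annotation is given in the sources used here. The labels' protocols name 2 RNA isolation kits, not which heart each served, and 1 sequencing run for all libraries. If the kits differed by group, their effect could not be told apart from that of treatment. In the table, 1 further per-sample column matched no labelled heart and was not used.

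The test was run in limma 3.58.1 (R 4.3.3) on log2(value + 1) for genes whose mean was 10 or more, with a mean-variance trend and Benjamini-Hochberg adjustment over all 13581 genes. This test served because the table holds scaled estimated counts and not raw counts. Most low values, 87.5% to 89.4%, were whole multiples (within 0.05) of the value of 1 read, and the rest were not. The code was tested on simulated data. Estimated reads are values divided by the value of 1 read. Alternatives were other pseudocounts (0.5 and 5), no filter or a mean of at least 30, quantile, median-of-ratios and trimmed-mean (TMM) scaling, no trend, the robust option, voom, thinning to the shallowest library, a lowess correction for transcript length and GC content (span 0.3, GENCODE M21), the replicate number as a block, both together, and each heart left out. The correction cannot separate an artifact of length from a change that follows length. Length and GC content were plain means over all annotated transcripts of a gene. They may differ from those of the transcripts made in these hearts.

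Tested members are given with their values in each heart, members under the limit that were above 0 in at least 3 hearts by their range, up to 5 called genes of each pathway list and up to 3 of each cell list by the smallest p. The members and lists were chosen with earlier results of these data known. Some genes that these rules name are not reported here, and the counts include them where they were tested. Promoters came from RefSeq, matched by identifier for 38 of the 53 members, and neighbours and overlaps from RefSeq and GENCODE M21.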

Additional observations from a re-analysis of the deposited data

How the results depend on the processing

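Under the 20 alternatives the number of members higher ran from 6 to 12 (9 as reported) and the number lower from 2 to 4 (3 as reported), and over all genes 2047 to 3188 were higher and 2081 to 3300 lower. With each heart left out in turn, 6 to 11 members were higher and 3 to 4 lower, and 2145 to 2799 genes were higher and 2490 to 2856 lower. Of the 12 called members, 4 (Ccl8, Cxcl5, Cxcr4 and Cxcr6) passed wherever they were tested, Ccl21c passed in the 17 that tested it but has no transcript length and so no test with the length and GC correction, and 0 reversed. Ccl27a and Cxcl12 were lost with the length and GC correction, with the replicate block added too (adjusted p = 0.199 and 0.0518). Under the replicate block, 7 members were higher and 3 lower, and calls lost included Ccl7 (adjusted p = 0.0519); with block and length correction 7 were higher and 2 lower, the uncorrected Ccl21c among the lower. The numbers were not used as pairs: deviations of hearts with the same number correlated at 0.238, 0.0191 and 0.5, and 3 of 6 hearts correlated best with their own number. Reversed log2 fold changes occurred in 11 members, none past the threshold there. With the length and GC correction, alone or with the block, they were 0.16 for Ccl19, -0.059 for Xcr1 and 0.45 for Ccl12. Outside the members, Ly6c1 of the monocyte list was at 0.16. With a heart left out, the log2 fold change ran from -0.52 to 0.98 for Ccl5, from -0.47 to 0.25 for Ccr1, from -0.19 to 0.43 for Ccl9, from -1.11 to 0.41 for Ccl12, from -0.62 to 0.29 for Ccl19, from -0.51 to 0.0092 for Ccl25, from -0.029 to 0.70 for Ccl2, from -0.048 to 0.29 for Ccl6, from -0.029 to 0.35 for Ccr10 and from -0.024 to 0.71 for Cxcl14. Among counts of list genes, 109 of 840 moved by more than 1.5 times. Over all alternatives the atypical receptors higher ran from 1 to 2, other chemoattractants higher from 1 to 6 and lower from 1 to 3, cleavage genes lower from 0 to 4, inducers higher from 3 to 5 and lower from 1 to 2, macrophage markers lower from 2 to 6 and higher from 0 to 1, dendritic markers lower from 0 to 2, endothelial markers higher from 1 to 3 and lower from 1 to 3, cardiomyocyte markers lower from 2 to 6 and higher from 1 to 2, lymphatic markers higher from 0 to 2 and platelet markers higher from 1 to 2. The cause of these changes was not tested. With 3 hearts per group and shallower vehicle libraries, depth limits the members under the limit, which were tested with no filter alone.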
